A study of Mus musculus with 16 samples.

Results

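Mitochondrial ribosomal protein genes were described across 4 sorted populations of the mouse mammary epithelium, with and without Cpeb2. The set holds every gene of the array annotation whose symbol starts with Mrpl or Mrps followed by a number, which gave 73 of 17097 genes, 46 named for the large subunit (Mrpl) and 27 for the small subunit (Mrps). Each gene is represented by its probe set with the highest mean over the 16 arrays, chosen from 129 probe sets. 35 of the genes have 1 probe set and 38 have several.

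The mitochondrial ribosome is a separate ribosome inside mitochondria. It makes the few proteins that mitochondrial DNA encodes, all of them core parts of the respiratory chain and the ATP synthase. All of its own proteins are encoded in the nucleus, made in the cytosol and imported, and they assemble with ribosomal RNAs made from mitochondrial DNA. Some descend from bacterial ribosomal proteins and others are found only in mitochondrial ribosomes.

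The cells came from 4 female mice of line DMI, aged 10 weeks and 2 days, on a C57BL/6J and 129 background and without treatment. The 2 knockout mice were Sox2-Cre +/+ and Cpeb2 -/-, and the 2 wild-type mice were Sox2-Cre +/+ and Cpeb2 +/+, so both genotypes carry the Cre and no group without it was analysed here. Sox2-Cre is a Cre driven by the Sox2 promoter and is used to recombine throughout the embryo, so the loss of Cpeb2 is not limited to the epithelium. Knockout mouse 1 and wild-type mouse 1 have the same parents, as do the mice numbered 2. Each mouse gave 3 luminal populations, all sorted as Epcam high and CD49f low. Of these, the non-clonogenic cells carried Sca1 and lacked CD49b, the ductal progenitors carried both antigens, and the alveolar progenitors carried CD49b and lacked Sca1. The fourth population was myoepithelial, the contractile outer layer, with low Epcam and high CD49f. That makes 8 groups of 2 arrays. The study's title places the comparison in a question about Cpeb2, an RNA-binding protein that regulates polyadenylation and translation of its targets in the cytoplasm, and the cytokine RANKL.

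The labelled populations carried their markers. The mean log2 level of 8 myoepithelial markers lay between 12.00 and 12.23 in myoepithelial arrays, against 6.09 to 7.09 in luminal arrays. 7 alveolar progenitor markers averaged 10.48 to 10.73 in alveolar progenitors, against 6.44 to 9.59 elsewhere. 6 hormone-sensing markers averaged 10.88 to 11.61 in non-clonogenic luminal cells and 10.64 to 11.64 in ductal progenitors, against at most 8.20 elsewhere. Of other cell types, 8 leukocyte markers averaged between 5.49 and 6.03 in every array. Single leukocyte markers ranged more widely, with Cd74 from 6.61 to 8.93. The highest mean of 6 fibroblast markers was 8.12, in 1 wild-type array of ductal progenitors. 3 measured adipocyte markers averaged 5.41 to 7.62 in knockout arrays, against 5.86 to 7.80 in wild-type arrays, and 2 red cell markers 7.89 to 8.47 in knockout arrays, against 7.73 to 8.89 in wild-type arrays. Cpeb2 itself, the gene that checks the labels, differed by -0.92 ± 0.22 (log2, knockout minus wild type, mean of the 4 populations ± SE, limma adjusted p = 0.0201). Its levels in non-clonogenic luminal cells were 6.42 and 7.67 in knockout mice, against 8.33 and 8.66 in wild-type mice. In alveolar progenitors, where Cpeb2 was dim, they were 5.45 and 4.81 in knockout mice, against 5.52 and 5.53 in wild-type mice.

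All values below are log2 levels on the scale the authors deposited, and a difference of 1 is a doubling. In every array, all 73 genes were brighter than the lower quartile of that array's probe sets. Their mean levels ran from 6.11 to 11.15 with a median of 9.17, against a median of 6.97 over all genes. Levels of different probe sets also reflect their probes, so no gene is ranked against another by level. In bulk RNA of sorted cells, fewer cells of a type and less RNA per cell cannot be told apart. The arrays show relative levels, so a lower value is a lower share of the RNA.

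Promoters were available in RefSeq's table (GRCm38.p6, 250 bases before to 50 after the start) for 65 of the 73 genes. They are described by their letters only, and no link to the levels was tested. The promoters of 4 genes that recur in the results and hold a motif are printed below. Capitals mark letters of a motif searched on both strands. The promoters of Mrps15, Mrpl40, Mrps25, Mrpl11 and Mrpl16, which recur as well, hold none of the motifs searched. Those of Mrpl42 (chr10:95501900-95502199, minus strand) and Mrpl35 (chr6:71823735-71824034, minus strand) hold AAGATGGCG, the letters of a YY1 motif. Those of Mrps22 (chr9:98601630-98601929, minus strand) and Mrps21 (chr3:95871465-95871764, minus strand) hold CCGGAAG or its complement CTTCCGG, the letters of an ETS motif.
Mrpl42: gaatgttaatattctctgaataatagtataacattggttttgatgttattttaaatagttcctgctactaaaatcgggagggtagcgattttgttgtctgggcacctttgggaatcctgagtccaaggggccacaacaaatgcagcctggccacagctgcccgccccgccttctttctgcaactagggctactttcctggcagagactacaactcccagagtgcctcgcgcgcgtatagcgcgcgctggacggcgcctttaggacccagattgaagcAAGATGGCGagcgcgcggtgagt
Mrpl35: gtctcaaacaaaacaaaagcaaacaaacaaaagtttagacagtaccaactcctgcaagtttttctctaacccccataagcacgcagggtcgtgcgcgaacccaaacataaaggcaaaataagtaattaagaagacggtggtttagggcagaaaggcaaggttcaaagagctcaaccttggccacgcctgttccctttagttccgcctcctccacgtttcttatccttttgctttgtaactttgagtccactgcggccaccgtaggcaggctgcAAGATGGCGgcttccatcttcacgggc
Mrps22: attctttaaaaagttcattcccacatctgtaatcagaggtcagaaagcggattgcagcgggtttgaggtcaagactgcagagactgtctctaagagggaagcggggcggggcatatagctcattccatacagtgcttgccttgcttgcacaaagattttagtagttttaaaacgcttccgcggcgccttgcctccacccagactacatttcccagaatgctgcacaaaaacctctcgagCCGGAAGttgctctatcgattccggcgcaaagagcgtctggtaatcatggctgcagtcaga
Mrps21: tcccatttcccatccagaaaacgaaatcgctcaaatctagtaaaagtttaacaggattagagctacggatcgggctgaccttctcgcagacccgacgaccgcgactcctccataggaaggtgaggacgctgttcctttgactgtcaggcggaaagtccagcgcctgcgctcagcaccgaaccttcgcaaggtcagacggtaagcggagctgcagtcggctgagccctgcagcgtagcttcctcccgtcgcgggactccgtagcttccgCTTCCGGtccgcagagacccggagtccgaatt
The ETS letters were in the promoters of 23 of the 65 genes (35.4%), against 9.93% of the 27025 genes in the table and 23.3% of the 4673 with a mean level of 8 or more. The YY1 letters were in 8 of the 65 (12.3%), against 1.64% of all genes and 4.19% of the brighter ones. The NRF1 core CGCATGCG was in 6 of the 65 (9.23%), against 2.07% and 4.79%. The E-box CACGTG was in 4 of the 65 (6.15%), against 8.09% and 12.9%. At least 1 of the ETS, YY1 and NRF1 letters was in the promoters of 33 of the 65 genes. A match describes letters and shows no binding.

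Over the 73 genes together, levels were lower in knockout than in wild-type cells in the 3 luminal populations, and the gap was narrowest in ductal progenitors. Each gene was centred on its own mean over the 16 arrays and the centred values were averaged. In non-clonogenic luminal cells the average was -0.105 and 0.064 in the 2 knockout arrays, against 0.364 and 0.265 in the 2 wild-type arrays. In alveolar progenitors it was -0.021 and 0.119 in knockout, against 0.289 and 0.330 in wild type. Both populations had every knockout array below every wild-type array. In ductal progenitors it was -0.015 and 0.010 in knockout, against 0.129 and 0.079 in wild type, which also do not overlap but lie closer. In myoepithelial cells it was -0.455 and -0.555 in knockout, against -0.586 and 0.089 in wild type, so there the genotypes overlapped.

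The second wild-type myoepithelial array stands apart. It lay 0.675 above the first, where the replicate arrays of the other 7 groups differed by 0.025 to 0.169 (SD between replicates 0.0721 over these 7 pairs, and 0.182 with this pair). 11 genes of dividing cells, which include replication and mitotic genes such as Mcm5, Top2a and Mki67, had a mean level of 9.02 in that array and 7.64 in the first. The same list lay between 6.24 and 7.02 in the 8 knockout arrays, against 7.64 to 10.12 in the 8 wild-type arrays, so it moved with genotype as well. All 11 were called lower in knockout, with a median difference of -2.63. Its part in the values of the mitochondrial ribosomal genes was not tested. As signs of RNA quality, 3′ minus middle probe sets of Gapdh differed by -0.03 to 0.49 in knockout arrays, against 0.02 to 0.60 in wild-type arrays. In ductal progenitors these Gapdh values were 0.15 and 0.12 in knockout, against 0.60 and 0.39 in wild type, without overlap. The same measure of Actb was 0.05 and 0.06 there in knockout, against 0.12 and 0.27 in wild type, and in non-clonogenic luminal cells 0.22 and 0.03 in knockout, against 0.25 and 0.39 in wild type.

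Markers of cell types moved with genotype too. The red cell gene Hba-a1, an alpha globin, had 10.59 and 10.70 in knockout non-clonogenic luminal cells, against 10.76 and 11.33 in wild type, and 11.16 and 11.16 in knockout alveolar progenitors, against 11.56 and 11.49 in wild type. In myoepithelial cells its levels were 10.75 and 10.62 in knockout, against 11.65 and 11.96 in wild type. Hba-a1 thus lay lower in knockout without overlap in these 3 populations, and the genotypes overlapped in ductal progenitors. The 5 endothelial markers averaged 7.14 and 7.76 in knockout myoepithelial cells, against 6.84 and 6.86 in wild type. The 8 leukocyte markers averaged 5.81 and 5.85 there in knockout, against 6.03 and 6.02 in wild type. Of these 8, Cd74 was at 7.69 and 7.76 in knockout myoepithelial cells, against 8.90 and 8.93 in wild type. The 6 hormone-sensing markers averaged 11.50 and 11.61 in knockout non-clonogenic luminal cells, against 10.88 and 10.96 in wild type, and 11.64 and 11.55 in knockout ductal progenitors, against 10.64 and 10.80 in wild type. Of these 6, Foxa1 went the other way and lay lower in knockout without overlap in both populations. In ductal progenitors Foxa1 was at 10.39 and 10.48 in knockout, against 10.93 and 10.51 in wild type. The 7 alveolar progenitor markers averaged 8.36 and 8.75 in knockout ductal progenitors, below both wild-type arrays, the higher at 9.59. The 3 adipocyte markers averaged 5.95 and 6.09 there in knockout, against 7.80 and 6.54 in wild type. Of these 3, Adipoq was dim and went the other way, at 4.34 and 4.39 in knockout, against 4.18 and 4.20 in wild type. The 6 fibroblast markers averaged 6.68 and 6.47 in knockout ductal progenitors, against 8.12 and 6.95 in wild type. The part of RNA quality and of these markers in the knockout differences was not tested.

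**Figure D1:**
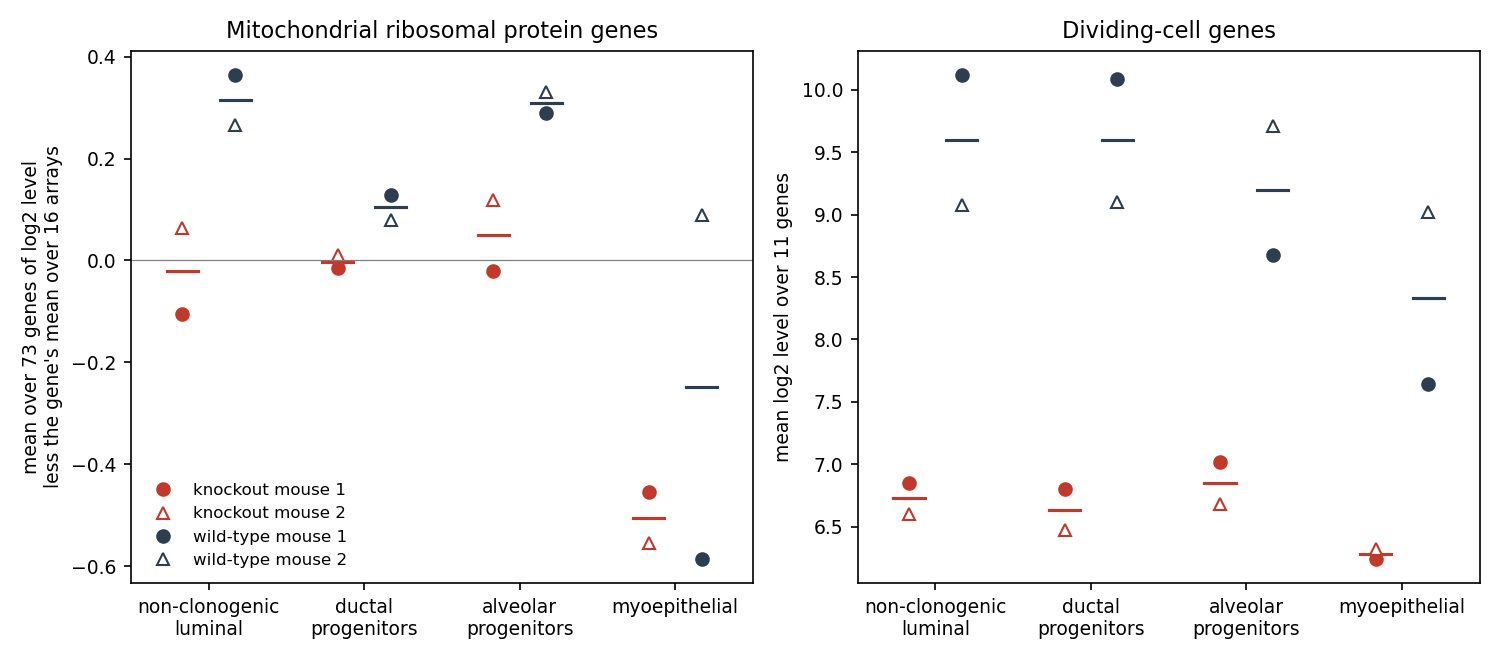
Left, the average of the 73 mitochondrial ribosomal protein genes in each of the 16 arrays, each gene centred on its own mean (log2). Right, the mean log2 level of 11 dividing-cell genes in the same arrays. Knockout is red, wild type is dark, circles are mouse 1, open triangles mouse 2, and bars are means of 2. The second wild-type myoepithelial array (0.089) lies far above the first (-0.586).

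Most genes followed this average. The correlation of a gene with the mean of the other 72 over the 16 arrays had a median of 0.807, and 59 of 73 were above 0.5. The arrays share amplification, scaling and mouse, so this is a description. Mrpl36 (r = 0.964) and Mrps12 (r = 0.962), homologues of bacterial large and small subunit proteins, were closest to it. Mrpl50 (r = -0.472), Mrpl19 (r = -0.393), Mrpl48 (r = -0.154), Mrpl47 (r = -0.132) and Mrps18b (r = -0.072) were the 5 below 0.

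Loss of Cpeb2 was first compared as the mean of the knockout minus wild-type differences in the 4 populations. 17 of the 73 genes were called lower and 0 were called higher (limma, Benjamini-Hochberg adjusted p under 0.05 over 17097 genes). At an unadjusted p under 0.05, 25 were lower and 3 were higher, against 2434 and 2168 of all 17097 genes. Over all genes tested, 7.04% were called lower and 3.18% higher, and among genes with a mean level of 8 or more 9.06% were called lower. The median of the 73 differences was -0.228, against 0.025 over all genes, and 64 of the 73 were below 0, against 41.9% of all genes.

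The largest difference was in Mrpl42, a large subunit protein specific to mitochondria (chr10:95480805-95501949, GRCm38.p6). In non-clonogenic luminal cells its levels were 10.05 and 10.44 in knockout, against 11.38 and 11.13 in wild type. In ductal progenitors they were 10.18 and 10.28 in knockout, against 11.30 and 10.89 in wild type, and in alveolar progenitors 10.23 and 10.34 in knockout, against 11.05 and 10.93 in wild type. In myoepithelial cells they were 9.33 and 9.16 in knockout, against 10.06 and 10.72 in wild type. Every knockout array lay below both wild-type arrays of its population. The mean difference was -0.93 ± 0.12 (limma adjusted p = 0.0012), and Mrpl42 kept its call in each of the 28 alternatives computed for it, with adjusted p between 0.000382 and 0.0295.

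Among other proteins of bacterial descent, Mrpl13 differed by -0.77 ± 0.15 (limma adjusted p = 0.00902). In the small subunit, Mrps15 differed by -0.75 ± 0.14 (limma adjusted p = 0.00648). Mrps15 in non-clonogenic luminal cells was at 9.35 and 9.26 in knockout, against 10.17 and 10.05 in wild type. In ductal progenitors it was at 9.28 and 9.33 in knockout, against 10.08 and 9.73 in wild type, and in alveolar progenitors at 9.29 and 9.35 in knockout, against 9.92 and 9.82 in wild type. In myoepithelial cells it was at 8.10 and 8.01 in knockout, against 8.59 and 9.62 in wild type. The genotypes did not overlap in any population, and the 2 wild-type myoepithelial arrays were 1.03 apart. Mrps24 (-0.72 ± 0.16), Mrpl34 (-0.70 ± 0.17), Mrpl35 (-0.56 ± 0.11) and Mrpl18 (-0.54 ± 0.14), also with bacterial homologues, were called lower too. So were Mrpl36 (-0.44 ± 0.12), Mrpl11 (-0.38 ± 0.11), Mrpl16 (-0.38 ± 0.09) and Mrpl3 (-0.32 ± 0.08). Mrpl18, Mrpl36, Mrpl11 and Mrpl3 lost their call in most fits with arrays or mice left out. Mrpl11 is the homologue of the protein at the base of the bacterial ribosome's stalk.

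Among small subunit proteins specific to mitochondria, Mrps22 (chr9:98588730-98601679), whose human copy carries recessive disease alleles, differed by -0.66 ± 0.11 (limma adjusted p = 0.00419). Its levels in non-clonogenic luminal cells were 8.24 in both knockout arrays, against 9.28 and 9.11 in wild type. In ductal progenitors they were 8.14 in both knockout arrays, against 9.26 and 8.93 in wild type. In alveolar progenitors they were 8.55 and 8.33 in knockout, against 8.98 and 8.92 in wild type. In myoepithelial cells the genotypes overlapped, with 8.44 and 8.04 in knockout, against 8.19 and 8.73 in wild type. Mrps25 (-0.45 ± 0.08), Mrps27 (-0.39 ± 0.08) and Mrps35 (-0.35 ± 0.09) were called lower as well. Mrpl37, specific to the large subunit, was called at -0.28. Mrps35 and Mrpl37 lost their call in most fits with arrays or mice left out. Mrps36 (-0.54 ± 0.09), named for the small subunit but now placed with the 2-oxoglutarate dehydrogenase complex, completed the 17.

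By descent, 8 of 29 large subunit proteins with a bacterial homologue were called lower, 2 of 19 specific to the mitochondrial large subunit, 2 of 14 small subunit proteins with a bacterial homologue and 4 of 10 specific to the small subunit. Their median differences were -0.228, -0.211, -0.207 and -0.266, close to one another. A chosen list of 10 genes whose human copies carry recessive disease alleles was also read. It is not claimed to be complete. It holds Mrps2, Mrps7, Mrps14, Mrps16, Mrps22, Mrps28, Mrps34, Mrpl3, Mrpl12 and Mrpl44. Of the 9 measured, 2 were called lower, Mrps22 and Mrpl3, and all 9 differences were below 0, as were 41.9% of those of all genes. The largest positive differences were those of Mrps6 (0.45 ± 0.16, limma adjusted p = 0.0926) and Mrpl24 (0.29 ± 0.12, limma adjusted p = 0.132), neither past the threshold. Mrps6 in non-clonogenic luminal cells was at 9.84 and 9.56 in knockout, against 9.17 and 8.93 in wild type.

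**Figure D2:**
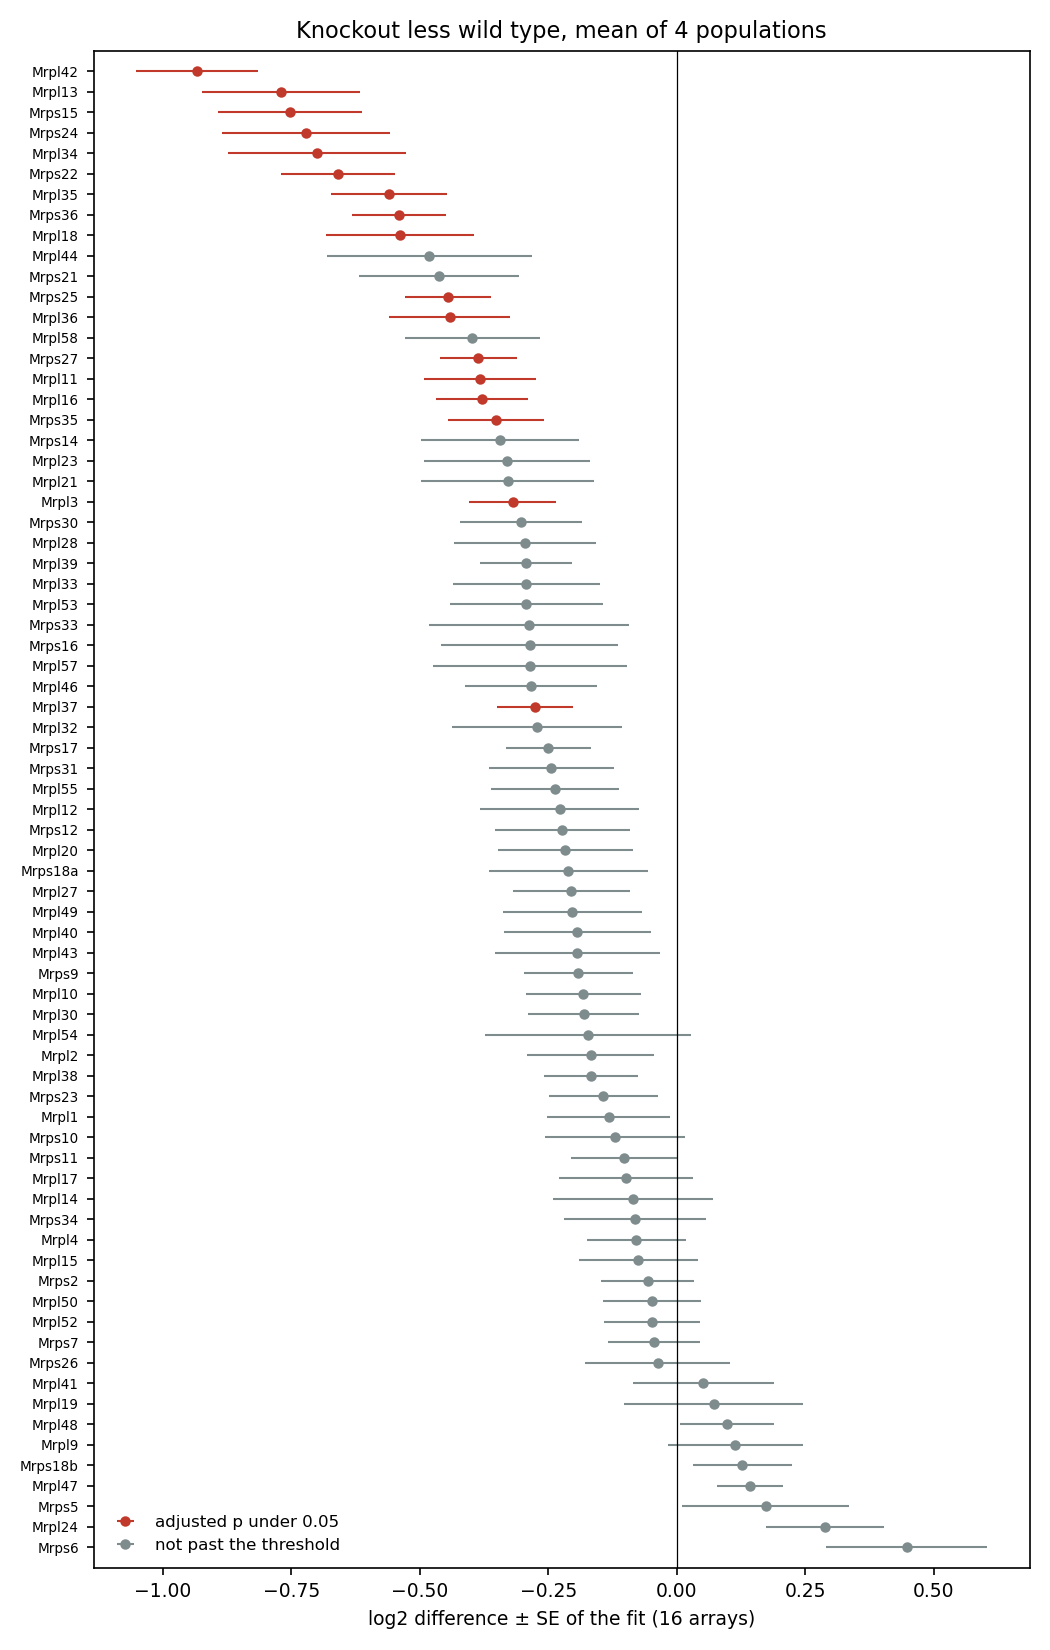
Difference of knockout minus wild type, as the mean of 4 populations, for each of the 73 genes (log2, points, with SE of the fit as bars), sorted by size. Red genes passed an adjusted p of 0.05. 64 of the points lie below 0 (41.9% of all genes do), and Mrpl42 (-0.93) is the lowest.

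The count of 17 depends on which mice are used. Leaving out knockout mouse 1 gave 2 and knockout mouse 2 gave 1, while leaving out wild-type mouse 1 gave 21 and wild-type mouse 2 gave 11. With 1 array left out it ran between 9 and 35, with 35 without the first wild-type myoepithelial array, and 9 both without the first wild-type array of non-clonogenic luminal cells and without the second of alveolar progenitors. The count of genes whose knockout arrays lay below both wild-type arrays was 43 in non-clonogenic luminal cells (22.1% of all genes), 29 in ductal progenitors (22.5%), 49 in alveolar progenitors (23.4%) and 18 in myoepithelial cells (24.0%). In all 4 populations it was 9 genes, Mrpl3, Mrpl11, Mrpl13, Mrpl35, Mrpl42, Mrps15, Mrps27, Mrps35 and Mrps36, against 3.07% of all genes.

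Within single populations fewer genes passed. In non-clonogenic luminal cells 4 were called lower and 0 higher (limma, against 1.73% and 0.339% of all genes), with 18 lower and 3 higher at an unadjusted p under 0.05, and a median of -0.315. The 4 called lower were Mrps25 (-1.04 ± 0.16, limma adjusted p = 0.0106), Mrpl42 (-1.01 ± 0.23), Mrps22 (-0.95 ± 0.21) and Mrps36 (-0.82 ± 0.17). Mrps25 kept this call in 16 of 20 fits with arrays or mice left out, Mrps36 in 8, and Mrpl42 and Mrps22 in 5 each. Mrps25 levels were 6.71 and 6.68 in knockout, against 7.80 and 7.67 in wild type. In ductal progenitors 2 were called lower and 0 higher (limma, against 4.35% and 3.09% of all genes), with 10 lower and 2 higher unadjusted. These were Mrps22 (-0.95 ± 0.21, limma adjusted p = 0.026) and Mrpl42 (-0.87 ± 0.23, limma adjusted p = 0.041). With arrays or mice left out, Mrps22 kept this call in 14 of 20 fits and Mrpl42 in 6 of 20, with adjusted p up to 0.347 for Mrpl42 over all its alternatives. The median there was -0.080, against 0.078 over all genes, and the 2.74% of the set called lower is below the share of all genes.

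In alveolar progenitors 0 genes were called in either direction (limma, against 0.351% lower and 0.269% higher of all genes), while 12 were lower and 1 higher at an unadjusted p under 0.05. 67 of the 73 differences were below 0 (49.5% of all genes), with a median of -0.299. Mrps27, a small subunit protein specific to mitochondria, came nearest to the threshold (-0.64 ± 0.14, limma adjusted p = 0.0759). In myoepithelial cells 1 gene was called lower, Mrpl42 (-1.14 ± 0.23, limma adjusted p = 0.0352), and 0 higher (against 0.567% and 0.445% of all genes), with 13 lower and 0 higher unadjusted. That call of Mrpl42 remained in 6 of 20 fits with arrays or mice left out and in 6 of 9 other alternatives, with adjusted p between 0.00332 and 0.449. The median of -0.219 there rests on the array that stands apart: it was 0.0859 without the second wild-type myoepithelial array and -0.589 without the first. Within the pairs of mice with the same parents, the myoepithelial median was 0.111 in pair 1, with 25 of 73 genes lower in knockout, and -0.634 in pair 2, with 65 lower. The same values were -0.452 and -0.189 in non-clonogenic luminal cells, -0.158 and -0.005 in ductal progenitors and -0.345 and -0.243 in alveolar progenitors.

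The F test for a knockout effect that differs between populations called 0 of the 73 genes (limma, against 0.667% of all genes), with 2 at an unadjusted p under 0.05. These were Mrps25 (unadjusted p = 0.00151, adjusted p = 0.0867) and Mrpl19 (unadjusted p = 0.00357, adjusted p = 0.12).

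**Figure D3:**
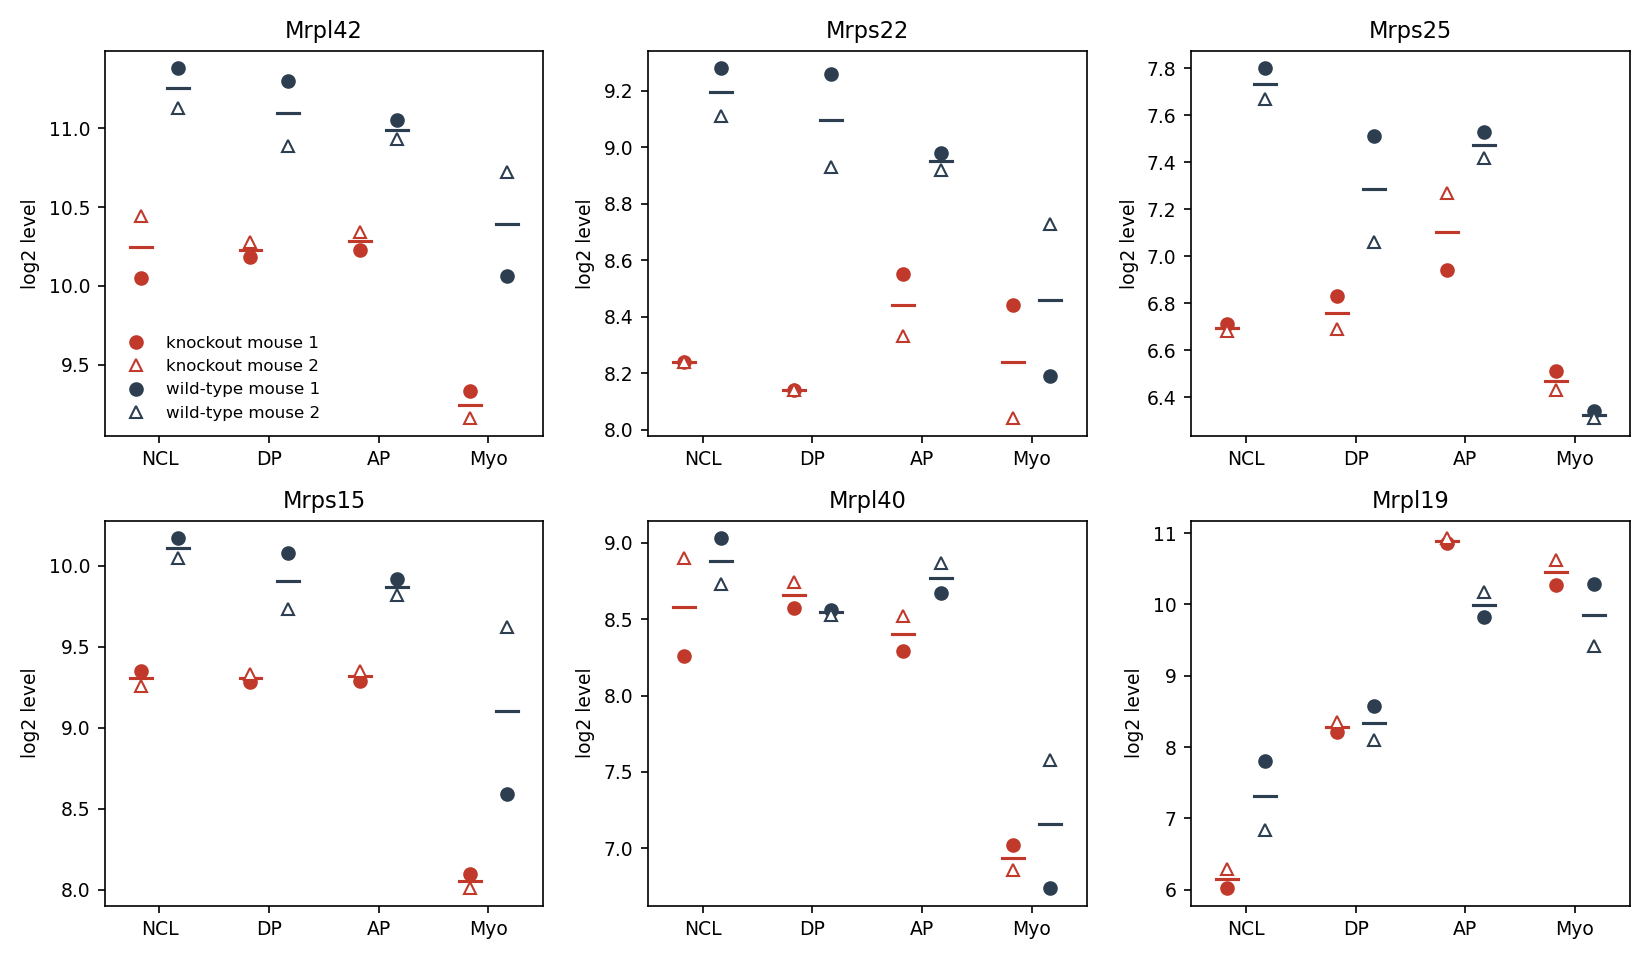
Log2 levels of 6 genes in each array, with populations along the axis, knockout in red left of wild type in dark, circles for mouse 1, open triangles for mouse 2 and bars for the means of 2. Mrpl42 in knockout lies below wild type in each population, Mrpl40 is lowest in myoepithelial cells, and Mrpl19 ranges from 6.02 to 10.93.

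The populations were then compared as the mean of both genotypes. Myoepithelial cells held the lowest mean level of 61 of the 73 genes, non-clonogenic luminal cells of 4, ductal progenitors of 8 and alveolar progenitors of 0. The highest mean was in non-clonogenic luminal cells for 37 genes, in alveolar progenitors for 33, in myoepithelial cells for 2 and in ductal progenitors for 1. Of the 73 genes, 45 (61.6%) differed among populations by the F test (limma, against 49.8% of all genes).

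Against the mean of the luminal populations, 50 of the 73 genes were called lower in myoepithelial cells and 2 higher (limma, against 24.4% lower and 23.5% higher of all genes). Among genes with a mean level of 8 or more, 39.1% were called lower. The median was -0.523, against 0.020 over all genes. The count was 58 without the second wild-type myoepithelial array, 36 without the first, and between 22 and 58 over arrays and mice left out. The median by mouse was -0.393 and -0.600 in knockout mice 1 and 2, against -0.909 and -0.156 in wild-type mice 1 and 2, and 44 genes were below the luminal mean in all 4 mice (25.6% of all genes). In 9 genes every myoepithelial array lay below every luminal array (7.22% of all genes). Without the second wild-type myoepithelial array this count was 38, against 12.0% of all genes.

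Endothelial markers moved with this comparison. The mean of the 5 measured was 6.84 to 7.76 in myoepithelial arrays, against 6.01 to 6.36 in luminal arrays. Of the 8 leukocyte markers, Cd74 was at 7.69 to 8.93 in myoepithelial arrays, against 6.61 to 7.36 in luminal arrays. The 6 fibroblast markers averaged 6.75 to 7.02 in myoepithelial arrays, within the 5.70 to 8.12 of luminal arrays. All 11 dividing-cell genes lay lower in myoepithelial than in luminal cells, with a median difference of -0.593, against 0.020 over all genes. Of them, Mcm2, Rrm2 and Tyms were called lower (limma, 3 of 11, against 24.4% of all genes). The part of the endothelial markers, of Cd74 and of the dividing-cell genes in the result was not tested.

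Mrpl40, a large subunit protein specific to mitochondria whose human copy lies in the DiGeorge syndrome deletion (chr16:18872018-18876637), had the largest fall. Its levels in myoepithelial cells were 7.02 and 6.86 in knockout and 6.74 and 7.58 in wild type. In luminal arrays its levels lay between 8.26 and 9.03. No myoepithelial array reached the luminal range, and the difference was -1.59 ± 0.15 (limma adjusted p = 3.23e-06). Mrps21, a homologue of bacterial S21, had 7.35 and 6.99 in knockout and 7.24 and 8.32 in wild-type myoepithelial cells, against 8.50 to 9.79 in luminal arrays. It differed by -1.42 ± 0.17 (limma adjusted p = 1.91e-05). Mrpl14 (-1.37 ± 0.17), Mrps33 (-1.29 ± 0.21), Mrpl33 (-1.15 ± 0.15), Mrpl58 (-1.10 ± 0.14), Mrpl44 (-1.08 ± 0.21) and Mrpl23 (-1.05 ± 0.17) followed. Mrpl58 is a peptidyl-tRNA hydrolase that can rescue stalled ribosomes. The large subunit proteins with a bacterial homologue included 19 of 29 called lower, those specific to the large subunit 15 of 19, small subunit proteins with a bacterial homologue 9 of 14 and those specific to the small subunit 6 of 10.

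Mrpl50, specific to the large subunit, went the other way. It had 9.93 and 10.18 in knockout and 9.85 and 9.86 in wild-type myoepithelial cells, against 9.21 to 9.85 in luminal arrays, and differed by 0.45 ± 0.10 (limma adjusted p = 0.00329). Mrpl19 was the other called higher, at 1.65 ± 0.19 (limma adjusted p = 1.41e-05), and its probe sets disagree. Its 2 next brightest probe sets differed by -0.51 ± 0.11 and -0.52 ± 0.11, both called lower, and the dimmest by -0.18 ± 0.10. Mrpl21 and Mrpl58 also have a second, dimmer probe set called in the opposite direction.

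**Figure D4:**
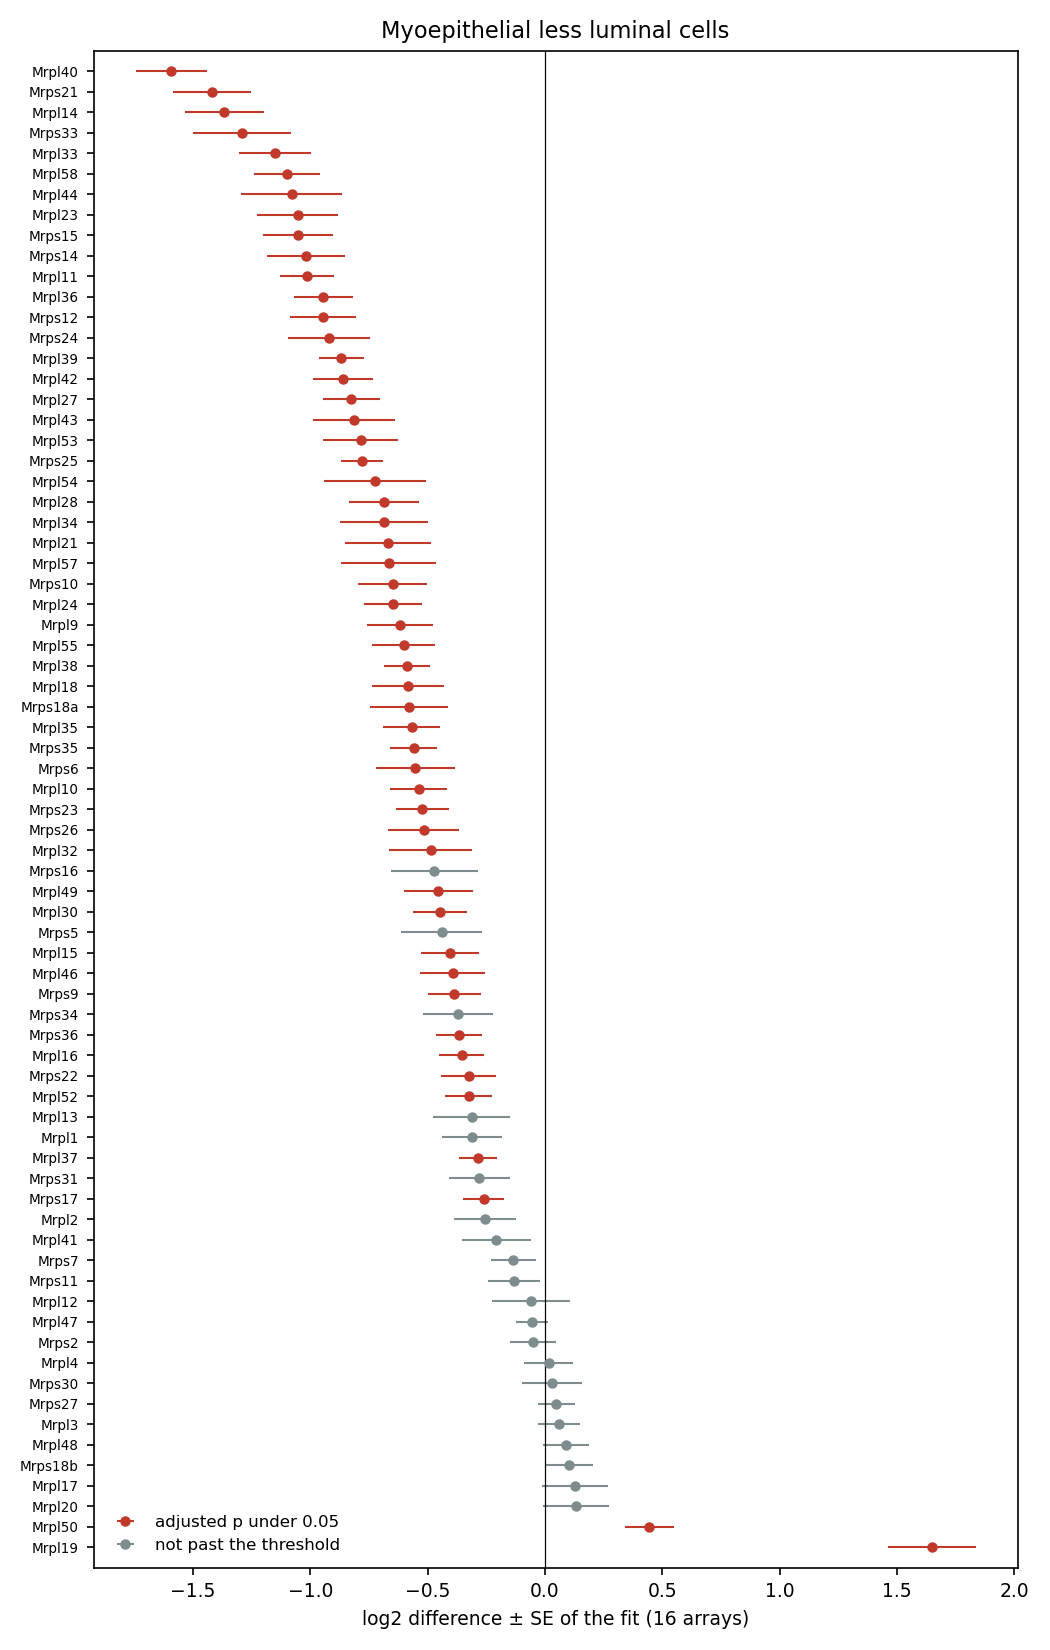
Difference of myoepithelial minus luminal cells (mean of the 3 luminal populations, both genotypes) for each of the 73 genes (log2 points with SE of the fit as bars), sorted by size. Red genes passed an adjusted p of 0.05. 63 points lie below 0 (46.7% of all genes do), from Mrpl40 (-1.59), and Mrpl19 (1.65) stands far to the right of all others.

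Few genes of the set passed between luminal populations. Alveolar progenitors against non-clonogenic luminal cells gave 4 genes called higher and 3 lower (limma, against 12.6% and 15.9% of all genes), with a median of -0.024. The higher genes were Mrpl19 (3.71 ± 0.23), Mrpl9 (0.80 ± 0.17), Mrpl3 (0.60 ± 0.11) and Mrpl48 (0.45 ± 0.12). Mrpl19 is read here from its brightest probe set, and its probe sets disagreed in myoepithelial against luminal cells. Between luminal populations, 0 genes of the set had probe sets called in opposite directions. The lower genes in alveolar progenitors against non-clonogenic luminal cells were Mrpl43 (-0.61 ± 0.21, limma adjusted p = 0.0496), Mrpl27 (-0.48 ± 0.15) and Mrps23 (-0.44 ± 0.14). Mrpl43 kept this call in 5 of 20 fits with arrays or mice left out, Mrps23 in 10 and Mrpl27 in 11. Alveolar against ductal progenitors gave 7 higher and 0 lower (limma, against 10.7% and 11.3%), with 15 higher and 1 lower unadjusted. These were Mrpl19, Mrpl9, Mrpl48, Mrpl16, Mrpl37, Mrpl3 and Mrps27, at 0.35 to 2.14. Ductal progenitors against non-clonogenic luminal cells gave Mrpl19 alone (1.57 ± 0.23, limma adjusted p = 0.0041) as higher and 0 as lower (against 0.755% and 0.0409%), with 2 higher and 0 lower unadjusted. Myoepithelial cells against alveolar progenitors gave 39 lower and 0 higher (limma, against 18.3% and 18.2%), with 48 lower and 0 higher unadjusted.

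Related genes were read beside the set, and their counts in the mean knockout comparison stand against 7.04% called lower and 3.18% called higher of all genes. Of 11 measured mitochondrial translation factors, 3 were called lower in the mean knockout comparison: Tufm, which delivers aminoacyl-tRNA (-0.34 ± 0.08), Gfm1, an elongation factor (-0.37 ± 0.10), and Qrsl1, a subunit of the amidotransferase that makes glutaminyl-tRNA in mitochondria (-0.41 ± 0.12). Gatb, another subunit of that enzyme, was called higher (1.02 ± 0.22). Gatb levels in non-clonogenic luminal cells were 10.45 and 11.12 in knockout, against 8.22 and 9.24 in wild type, and in myoepithelial cells 7.19 and 7.29 in knockout, against 7.47 and 7.46 in wild type. Of 22 assembly factors, 5 were called lower and 0 higher: Fastkd2 (-0.75 ± 0.16), Mtg1 (-0.54 ± 0.11), Tfb1m, which methylates the small ribosomal RNA (-0.53 ± 0.10), Noa1 (-0.49 ± 0.10) and Mettl15 (-0.43 ± 0.07). Mettl15 was dim, at 4.28 to 5.58, where the lower quartile of an array's probe sets lay between 5.08 and 5.18. Of 8 nuclear regulators of mitochondrial genes, including Nrf1 and Yy1, 0 were called in the mean knockout comparison (limma), with 1 at an unadjusted p under 0.05. Of 4 ribosomal proteins under other names and 4 genes of mitochondrial transcription, 0 were called (limma), with 1 unadjusted in each list, Dap3 (-0.29 ± 0.09) and the RNA polymerase Polrmt (-0.37 ± 0.12). Polrmt was called lower within non-clonogenic luminal cells (-1.08 ± 0.23, limma adjusted p = 0.0388) and ductal progenitors (-0.94 ± 0.23, limma adjusted p = 0.0372). In myoepithelial cells it differed by 0.91 ± 0.23, which did not pass (limma adjusted p = 0.0949), and the F test of a knockout effect that differs between populations passed for it (limma adjusted p = 0.0374). Of 4 genes for membrane insertion and translational activation, Lrpprc, which stabilises mitochondrial messenger RNAs, was called lower (-0.43 ± 0.11). In myoepithelial against luminal cells, where 24.4% of all genes were called lower and 23.5% higher, 12 of the 22 assembly factors were called lower and 2 higher. Of the 11 translation factors, 5 were called lower and 1 higher. Of the 8 regulators, 4 were called higher, Myc (1.33 ± 0.18) among them, and 1 lower, Gabpb1 (-0.41 ± 0.10), a subunit of nuclear respiratory factor 2.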

How the data were processed

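The deposited table holds log2 expression values per probe set for the 16 arrays. The labels' protocols give 15 ng of amplified total RNA and 8 µg of biotin-labelled cDNA per array. RMA and limma are named in the submitters' processing notes, without versions or roles. How background, batches or dim probes were handled is not given there. Array medians lay between 6.35 and 6.40, and replicate arrays correlated at r = 0.977 to 0.992. Replicates are separate mice, 2 per genotype, and the fit estimates the spread of a gene from the replicates of all 8 groups. In the mean knockout comparison the 4 populations of a mouse count almost as independent (consensus correlation 0.0383), though genotype varies only between mice. Its p-values rest on this.

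Probe sets were named through the supplied array annotation: of 45141, 28898 had 1 symbol, 551 several, 15588 none and 104 were controls. 6 probe sets of these genes with several symbols were left out. Entrez identifiers of 28689 matched the GRCm38.p6 gene table and 0 symbols changed.

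All arrays entered one limma model (3.58.1, R 4.3.3, statmod 1.5.0) fitting the 8 group means, with mouse as random block (consensus correlation 0.0383 by duplicateCorrelation) and an eBayes trend (8 residual and 3.90 prior degrees of freedom). p-values were adjusted by Benjamini-Hochberg over 17097 genes. Differences are followed by the SE of the fit. Tested on simulated data with 17097 genes, it recovered 76% of genes changed by 0.5 and 96% of those changed by 1 in the mean knockout comparison, with 21 false calls. These shares were 33% and 71% in non-clonogenic luminal cells (3 false calls) and 52% and 93% in myoepithelial against luminal cells (10 false calls). Each share is of 100 changed genes. The simulated noise was independent between arrays and between genes, with no effect of mouse or parents. The shares hold for that setting and may not hold for 2 against 2 mice. Same-numbered mice have the same parents in the labels, and the correlation of their deviations was 0.074, -0.007, 0.059 and -0.043 in the 4 populations. Up to 15 called genes per direction were named by size in each comparison, or up to 5 where fewer than 5 passed, with genes whose probe sets disagree. Mrpl3 and Mrpl37, called lower with knockout beyond the 15, were named after their values were seen. The genes and lists were chosen with earlier results of these data known. Alternatives covered the probe set, filter, normalization, block, trend, weights, samples and left-out arrays and mice. The background at a mean level of 8 or more, the count of myoepithelial arrays below luminal ones with 1 array left out, and the average without Mrpl19 were added after the data were seen. That average was -0.614 and 0.083 in the wild-type myoepithelial arrays. Figures were drawn with matplotlib 3.10.9.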

Additional observations from a re-analysis of the deposited data

Results flagged for a closer look

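The knockout difference of Mrpl19, a homologue of bacterial L19, ran in opposite directions in 2 luminal populations. Its levels in alveolar progenitors were 10.86 and 10.93 in knockout, against 9.82 and 10.17 in wild type. In non-clonogenic luminal cells they were 6.02 and 6.29 in knockout, against 7.80 and 6.83 in wild type. The difference in alveolar progenitors less that in non-clonogenic luminal cells was 2.06, and every array followed it. The F test over the 4 populations gave an unadjusted p of 0.00357 and a limma adjusted p of 0.12, so it did not pass. Its next brightest probe set gave -0.65 ± 0.19 in alveolar progenitors and 0.12 ± 0.19 in non-clonogenic luminal cells, opposite signs to the brightest.

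Mrps25 was lower in knockout in non-clonogenic luminal cells and not in myoepithelial cells, where its levels were 6.51 and 6.43 in knockout, against 6.34 and 6.31 in wild type. The difference in myoepithelial cells less that in non-clonogenic luminal cells was 1.18, with no overlap of arrays in either. The F test gave an unadjusted p of 0.00151 and a limma adjusted p of 0.0867, which did not pass. Opposite differences without overlap occurred in 15 of the 73 genes (20.5%), against 27.1% of all genes, so the share here is below that of all genes.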

How the results depend on the processing

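The medians kept their sign under all alternatives run in the mean knockout comparison (-0.336 to -0.118), in myoepithelial against luminal cells (-0.682 to -0.291) and in myoepithelial cells against alveolar progenitors (-0.736 to -0.360). The median knockout difference in myoepithelial cells reversed to 0.0859 without the second wild-type myoepithelial array and to 0.088 without wild-type mouse 2, and ran down to -0.594. With the parent pair as a replicate block, 18 genes were called lower in the mean knockout comparison, and with the mouse as a replicate block 51 were in myoepithelial against luminal cells, and the block changed no other count by over 1.5 times.

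With arrays or mice left out in turn, genes called lower numbered 1 to 35 in the mean knockout comparison, 0 to 9 in non-clonogenic luminal cells, 0 to 9 in ductal progenitors and 0 to 24 in myoepithelial cells, and genes called higher 0 to 2, 0, 0 to 3 and 0 to 1. In myoepithelial against luminal cells they were 22 to 58 lower and 1 to 4 higher, and in myoepithelial cells against alveolar progenitors 11 to 59 lower. Alveolar progenitors against non-clonogenic luminal cells gave 2 to 7 higher and 0 to 9 lower, alveolar against ductal progenitors 1 to 11 higher and 0 to 1 lower, and ductal progenitors against non-clonogenic luminal cells 0 to 1 higher. The F tests called 0 to 2 genes for the knockout effect and 10 to 62 for populations. Mrpl42 and Mrps22 with knockout in non-clonogenic luminal cells each kept their call in 5 of 20 such fits.

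Among other settings, counts moved as follows. The mean of all probe sets gave 4 lower in ductal progenitors, 1 in alveolar progenitors and 0 in myoepithelial cells with knockout, and 1 higher in myoepithelial against luminal cells. Testing every probe set gave 1 higher in the mean knockout comparison, 2 higher and 5 lower in ductal progenitors, 6 higher in myoepithelial against luminal cells, 3 higher against alveolar progenitors, and 8 higher and 8 lower in alveolar progenitors against non-clonogenic luminal cells. Centring each array on its median gave 2 higher in the mean knockout comparison, 2 lower in non-clonogenic luminal cells, 8 higher in alveolar progenitors against these and 11 against ductal progenitors. Without the trend, 1 gene was lower with knockout in alveolar progenitors and 8 were higher there against non-clonogenic luminal cells. Array weights gave 2 lower in alveolar progenitors and 0 in myoepithelial cells with knockout, 8 higher and 7 lower in alveolar progenitors against non-clonogenic luminal cells, and 1 lower against ductal progenitors. With only the arrays compared, 0 were lower with knockout in non-clonogenic luminal cells, ductal progenitors and myoepithelial cells, and 7 were higher and 9 lower in alveolar progenitors against non-clonogenic luminal cells; such a fit has 2 residual degrees of freedom in a knockout comparison. The cause of these moves was not tested otherwise.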
